A study of Mus musculus with 2 samples.

Results

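Thyroid hormone signalling was described in newborn mouse skeletal muscle through 8 genes: the hormone receptors Thra and Thrb, the retinoid X receptors Rxra, Rxrb and Rxrg, the transporter Slc16a10, the activating enzyme Dio2 and the corepressor Ncor1. They were chosen by symbol, with earlier results of these data known. All 8 were found among the 43346 gene IDs of the files, with 60 transcript models. Thyroid hormone enters cells through membrane transporters. A deiodinase inside the cell turns the prohormone thyroxine into triiodothyronine, the form that the receptors bind. The receptors sit on DNA, mostly paired with a retinoid X receptor; without hormone they recruit corepressors such as NCOR1, and with hormone coactivators take their place. In skeletal muscle this pathway is known for its part in the perinatal change of myosin forms, in calcium handling and in energy use.

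Total RNA was sequenced from skeletal muscle of B6NCrl mice on postnatal day 0. The series holds 1 untreated group of 2 samples, pup 1 (biological replicate 1) and pup 2 (biological replicate 2), which by their descriptions came from 1 pregnancy. A single donor entry is recorded for both samples, the sex was not collected, the muscle is not named, and nothing in the labels says whether the tissue of a pup was taken whole or cleared of neighbouring tissue. The input of a library was 10 ng of RNA above 200 nt, and the gene tables summed to 40455042 expected counts in pup 1 and 37151129 in pup 2. With 1 group there was no comparison of conditions and no test: values are given for each pup, with the mean ± SD (n = 2), and that spread is biological only if the samples are separate animals. The files are not 1 library deposited again (chi-square of 63.05 per degree of freedom over genes), and that they are 2 animals rests on their descriptions alone. The 8 skeletal muscle markers summed to 78674 TPM in pup 1 and 88500 TPM in pup 2, where TPM is the length-corrected level of the files, scaled to a fixed sum per library.

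Most of these genes were well represented, and Thrb and Dio2 were scarce. Of the 8 genes, 6 reached a mean of 1 TPM, beside 58.2% of the 21474 protein-coding genes. In TPM the order of the means ran Ncor1, Rxrg, Thra, Rxrb, Rxra, Slc16a10, Thrb and Dio2. A neighbouring pair in this order was said to differ beyond the spread where the log2 ratio of the first to the second, with 0.1 TPM added to each, had the same sign in both pups and a mean over 3 times its SD. By this rule Ncor1 lay above Rxrg in deposited TPM (but below it on the scale of longest coding models, given with Ncor1), Thra above Rxrb, Rxrb above Rxra, and Slc16a10 above Thrb, while Rxrg and Thra, Rxra and Slc16a10, and Thrb and Dio2 were not separated beyond their spread. In bulk tissue, fewer cells of a type and less RNA per cell cannot be told apart.

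**Figure D1:**
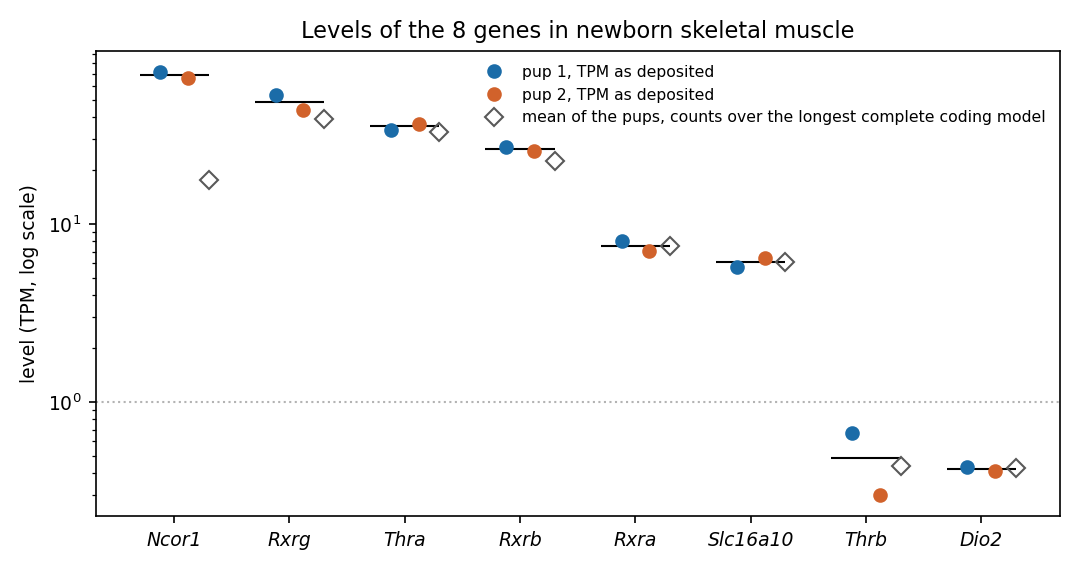
Level of each of the 8 genes in TPM on a log axis. Filled points are the pups, the short line is their mean, and the open diamond is the mean level when the gene's counts are divided by the length of its longest coding model; Ncor1 is at 68.8 TPM by the first and 17.8 TPM by the second, while Thrb and Dio2 lie below the dotted line at 1 TPM by both.

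Thra, the gene of thyroid hormone receptor alpha (ENSMUSG00000058756, mm10 chr11:98740638-98769006, plus strand), was the main receptor gene of this muscle. It had 33.95 TPM in pup 1 and 36.67 TPM in pup 2 (35.3 ± 1.92 TPM), from 2247.5 and 2256.03 expected counts. Both pups thus had nearly the same level, which exceeded that of 86.3% of protein-coding genes. Thrb, the gene of receptor beta (ENSMUSG00000021779, chr14:17660261-18038090, plus strand), had 0.67 TPM in pup 1 and 0.30 TPM in pup 2 (0.485 ± 0.262 TPM), from 106 and 47 counts. Its level lay above that of 37.4% of protein-coding genes. The log2 ratio of Thra to Thrb was 5.47 in pup 1 and 6.52 in pup 2 (5.99 ± 0.75), and Thra held 98.6% ± 0.795 of the TPM of the receptor pair.

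Thra makes 2 main proteins by alternative splicing. Receptor alpha1 binds hormone and activates genes, whereas alpha2 has another C-terminal end, does not bind hormone and can oppose the other receptors. The alpha1 model, Thra-202, reads on past a splice donor at position 98764405 of chromosome 11 into 40 codons of its own. The alpha2 model, Thra-201, splices from that donor to a last exon at 98768157 to 98769006 and takes 122 codons from it. The following runs of coding sequence are shown because this switch decides whether the receptor can bind hormone. They were read from the GENCODE M21 transcripts on the plus strand of mm10; lower case marks the last 36 shared bases (chr11:98764370-98764405) and capitals mark 120 bases found only in that form, which are all of the alpha1-only codons (chr11:98764406-98764525) and the first part of those of alpha2 (chr11:98768157-98768276).
Thra alpha1: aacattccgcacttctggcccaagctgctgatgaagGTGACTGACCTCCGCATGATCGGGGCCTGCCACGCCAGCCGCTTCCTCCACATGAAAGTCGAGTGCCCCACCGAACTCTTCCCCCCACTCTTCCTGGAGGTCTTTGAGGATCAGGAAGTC
Thra alpha2: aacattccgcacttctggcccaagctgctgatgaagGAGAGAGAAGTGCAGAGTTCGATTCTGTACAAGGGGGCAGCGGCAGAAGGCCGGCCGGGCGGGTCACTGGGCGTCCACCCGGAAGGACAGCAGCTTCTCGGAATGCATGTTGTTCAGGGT

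The form that does not bind hormone was the more abundant one. Thra-201, the alpha2 form of 492 codons, had 22.7 TPM in pup 1 and 23.5 TPM in pup 2, and Thra-202, the alpha1 form of 410 codons, had 8.83 and 9.49 TPM. The log2 ratio of Thra-201 to Thra-202 was 1.35 in pup 1 and 1.30 in pup 2 (1.33 ± 0.04), about 2.51-fold. The intervals of TPM that the authors deposited for the forms did not overlap in either pup: in pup 2, for example, they ran from 21.7 to 24.4 TPM for Thra-201 and from 8.29 to 10.3 TPM for Thra-202. As shares of the gene's TPM, Thra-201 held 65.6% ± 1.97 and Thra-202 25.9% ± 0.0707. An incomplete model with alpha2-type splicing, Thra-203, held 4.79% ± 0.177. The 5 noncoding models together had 0.80 TPM in pup 1 and 1.83 TPM in pup 2, led by Thra-207 at 0.68 and 1.32 TPM, and the incomplete coding model Thra-208 and the noncoding Thra-209 had 0 counts in both pups. Thra-204 had 0 TPM in pup 1 and 0.15 TPM in pup 2, Thra-205 0.12 and 0 TPM, and Thra-206 0 and 0.36 TPM.

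**Figure D2:**
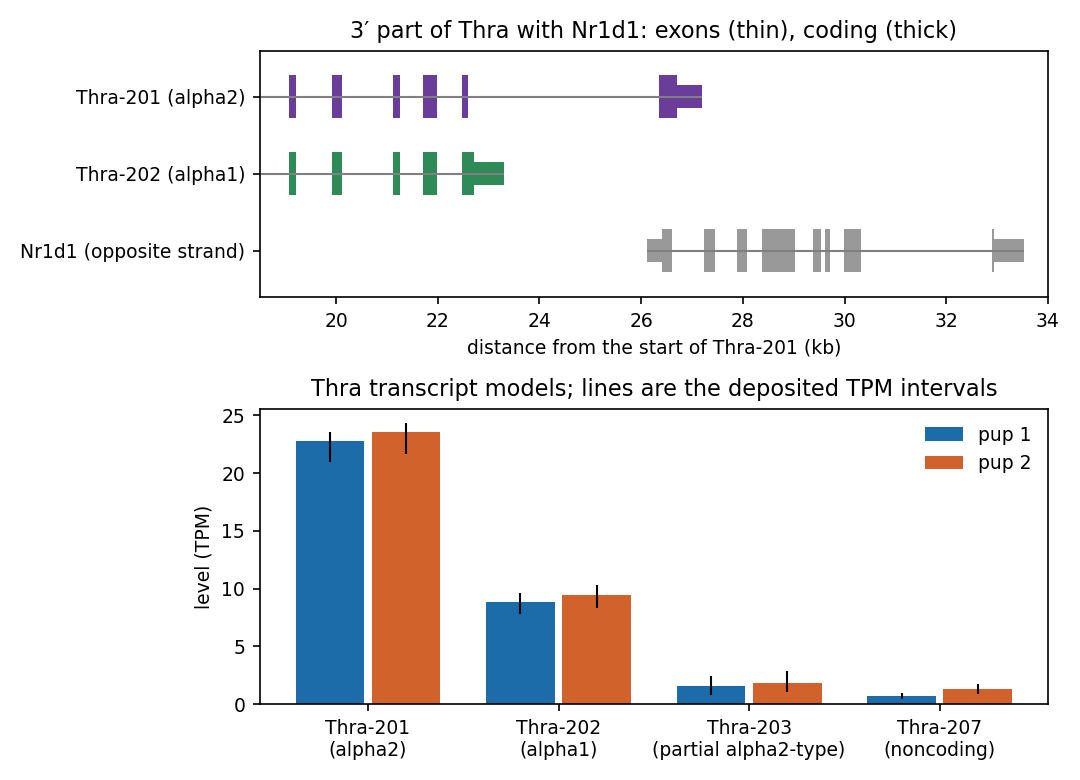
Upper panel: exons of the alpha2 and alpha1 models of Thra and of Nr1d1, which is read from the opposite strand, by distance in kb from the start of Thra-201; thick boxes are coding. Lower panel: TPM of the Thra models in each pup (bars) with the authors' deposited TPM intervals (lines); Thra-201 stands above 22 TPM and Thra-202 below 10 TPM in both pups, and the last exon of alpha2 alone overlaps an exon of Nr1d1.

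One limit bears on the alpha2 level. Nr1d1, the gene of the clock repressor REV-ERB alpha, runs against Thra, and 263 nt of the 850 nt of the alpha2 last exon (30.9%) lie within the last exon of Nr1d1; all 120 alpha2 bases printed in capitals fall there. The library kit named in the protocols does not mark strand, so reads of that stretch cannot be assigned to one gene by strand. The deposited counts show the sharing: Thra and Nr1d1 had fractional totals, with 2247.5 and 822.5 counts in pup 1, and 2256.03 and 721.97 in pup 2, and the pair summed to whole numbers, 3070 and 2978. The other 7 genes had whole totals (within 0.005 of a count), as had 74.4% of the 14163 protein-coding genes with at least 10 counts in both pups. Nr1d1 itself had 10.6 TPM in pup 1 and 9.74 TPM in pup 2, and the log2 ratio of Thra to Nr1d1 was 1.78 ± 0.17. The other 587 nt of the alpha2 exon overlap no exon of Nr1d1 but lie within an intron of it. Reads of unspliced Nr1d1 RNA there could not be told apart by strand either. The whole alpha1 end lies outside Nr1d1.

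The authors' model assigned the scarce Thrb counts to the beta1 form, the widespread one, and none to beta2, the form known from pituitary and retina, although most exons of beta2 are shared with beta1. The models that start upstream and encode beta1, Thrb-201 and Thrb-203, took all 106 counts in pup 1 and all 47 in pup 2. Thrb-202, which encodes beta2 from its own first exon (chr14:17981529-17982201), drew 0 counts in either pup. At 3 counts per library over the whole model, and for counting error only, this leaves room for up to 0.0168 TPM in pup 1 and 0.0177 TPM in pup 2. Over its own first exon alone, which is far shorter, the limit would be looser. The authors' own intervals for Thrb-202 reached higher, to 0.223 and 0.176 TPM, and their posterior means gave it 11.4% of the gene's TPM in pup 1 and 22.0% in pup 2, so a beta2 part was not settled at this depth. How the counts split between the beta1 models was not settled: Thrb-201 had 0.25 TPM in pup 1 and 0.06 TPM in pup 2, Thrb-203 had 0.42 and 0.24 TPM, and their deposited intervals overlapped in both pups. The 4 pituitary and photoreceptor markers summed to 2.72 TPM in pup 1 and 2.43 TPM in pup 2. Pomc had 1.69 and 1.32 TPM and Opn1sw 0.96 TPM in both, above Thrb, while Tshb had 0.07 and 0.15 TPM and Gh was at 0 in both pups.

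Among the retinoid X receptors, the partners with which thyroid hormone receptors bind DNA, Rxrg led. Rxrg (ENSMUSG00000015843, chr1:167598384-167639623, plus strand), the form known to be most restricted to muscle and brain, had 53.0 TPM in pup 1 and 43.9 TPM in pup 2 (48.5 ± 6.45 TPM), from 2555 and 1998 counts. Rxrb (ENSMUSG00000039656, chr17:34031812-34038399, plus strand), the broadly expressed form, had 26.9 TPM in pup 1 and 25.8 TPM in pup 2 (26.4 ± 0.806 TPM). Rxra (ENSMUSG00000015846, chr2:27676440-27762957, plus strand), the form known as dominant in liver and skin, had 8.0 TPM in pup 1 and 7.03 TPM in pup 2 (7.51 ± 0.686 TPM). The order was the same in both pups. The log2 ratio of Rxrg to Rxrb was 0.98 in pup 1 and 0.77 in pup 2 (0.87 ± 0.15), that of Rxrg to Rxra 2.67 ± 0.06, and that of Rxrb to Rxra 1.80 ± 0.09. Rxrg held 58.8% ± 2.16 of their summed TPM, Rxrb 32.1% ± 2.12 and Rxra 9.13% ± 0.0472. The 3 partners summed to 88.0 TPM in pup 1 and 76.7 TPM in pup 2, which is 2.54 and 2.08 times the sum of Thra and Thrb.

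Rxrg can start in either of 2 regions, 19925 nt apart by the starts of Rxrg-201 and Rxrg-202. The 3 models that encode 463 codons start upstream. Rxrg-201 begins with the exon chr1:167598384-167598800, and Rxrg-203 and Rxrg-204 start within its bounds, at 167598480 and 167598460. The inner exon (chr1:167618309-167618495) begins Rxrg-202, which encodes 340 codons and so lacks the N-terminal part. The RefSeq promoter windows of both starts (GRCm38.p6, plus strand, 250 bases before to 50 after the RefSeq start) are printed because the start used sets the form of the protein. Capitals mark every match to the muscle-type E-box CAGCTG, bound by MYOD family factors, and to the nuclear receptor half-site AGGTCA, searched on both strands. The upstream window is chr1:167598112-167598411 and the inner window chr1:167618015-167618314.
Rxrg upstream promoter: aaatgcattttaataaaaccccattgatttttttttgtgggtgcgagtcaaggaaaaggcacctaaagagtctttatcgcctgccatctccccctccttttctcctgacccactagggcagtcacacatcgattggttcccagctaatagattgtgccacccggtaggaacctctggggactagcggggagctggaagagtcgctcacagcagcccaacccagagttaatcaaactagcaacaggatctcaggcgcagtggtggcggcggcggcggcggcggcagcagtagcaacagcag
Rxrg inner promoter: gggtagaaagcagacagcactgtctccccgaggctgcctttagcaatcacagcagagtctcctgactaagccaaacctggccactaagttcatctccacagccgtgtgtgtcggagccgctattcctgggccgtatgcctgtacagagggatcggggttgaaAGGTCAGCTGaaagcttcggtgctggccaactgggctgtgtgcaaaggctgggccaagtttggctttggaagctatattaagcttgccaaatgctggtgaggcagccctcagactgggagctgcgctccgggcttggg

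The inner start carried most of the Rxrg signal. Rxrg-202 had 40.1 TPM in pup 1 and 32.7 TPM in pup 2, or 75.1% ± 0.863 of the gene's TPM, and the upstream models together had 12.9 and 11.2 TPM (24.9% ± 0.863). Against Rxrg-201, the larger upstream model, the log2 ratio of Rxrg-202 was 2.29 in pup 1 and 2.35 in pup 2 (2.32 ± 0.04). The upstream models Rxrg-201 and Rxrg-204 had 8.12 and 4.78 TPM in pup 1, and 6.33 and 4.89 TPM in pup 2, while Rxrg-203 had 0 counts. In the inner window CAGCTG and AGGTCA each occurred once and overlapped in the capitals by 2 bases, and the upstream window held neither. Among 32851 RefSeq promoter windows of the same length, 16.3% held CAGCTG and 16.3% held AGGTCA, so either is a common match. TATAAA (13.6% of windows), a MEF2-type motif of CTA, 4 free bases and TAG (3.69%), and the direct repeat of AGGTCA with 4 free bases between its copies, a classic thyroid hormone receptor site (0.0152%), were in neither window on either strand. A match describes the letters of the window and is not evidence of binding.

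**Figure D3:**
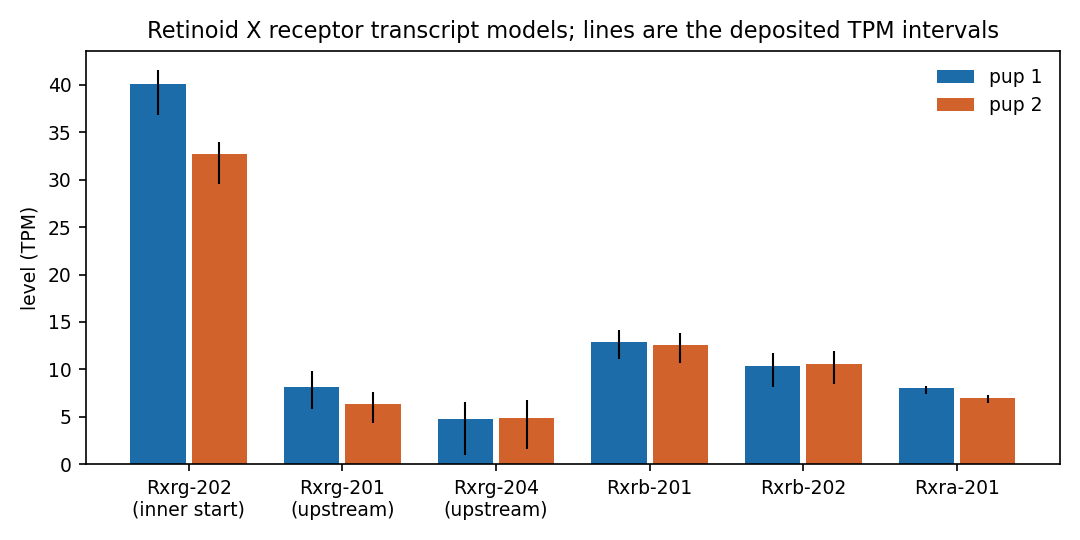
TPM of the retinoid X receptor transcript models in each pup (bars) with the authors' deposited TPM intervals (lines). The inner-start model Rxrg-202 is at 40.1 TPM in pup 1 and 32.7 TPM in pup 2, above every other model shown, and the upstream models and the Rxrb and Rxra models lie below 15 TPM.

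Rxrb was divided between models that differ at the first exon and by 12 coding bases at the start of a later exon (chr17:34036861-34036872), which lie in the part that encodes the ligand-binding region of the receptor. The bases are shown in capitals within their neighbours, which come from the exon before (chr17:34036734-34036757) and from the same exon; they were read from the GENCODE M21 transcripts on the plus strand of mm10.
Rxrb-201: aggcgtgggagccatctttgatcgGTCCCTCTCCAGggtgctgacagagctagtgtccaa
Rxrb-202: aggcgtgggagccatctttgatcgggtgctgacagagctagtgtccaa
Rxrb-201, with 524 codons and the extra bases, had 12.9 TPM in pup 1 and 12.6 TPM in pup 2, or 48.2% ± 0.679 of the gene's TPM. Rxrb-202, with 410 codons and without them, had 10.3 TPM in pup 1 and 10.6 TPM in pup 2, or 39.7% ± 1.99. The log2 ratio of Rxrb-201 to Rxrb-202 was 0.31 in pup 1 and 0.24 in pup 2 (0.28 ± 0.05), and the deposited intervals of these models overlapped in both pups, so their order was within the authors' own uncertainty. Models that keep an intron held 12.1% ± 2.67 of Rxrb TPM but 3.68% ± 0.883 of its counts, since they are short. All Rxra counts fell on Rxra-201, which encodes 467 codons.

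For entry of hormone, Slc16a10 encodes MCT10, a transporter of thyroid hormones and aromatic amino acids (ENSMUSG00000019838, chr10:40033532-40142258, minus strand). It had 5.72 TPM in pup 1 and 6.46 TPM in pup 2 (6.09 ± 0.523 TPM), from 906 and 968 counts, all on its single transcript model. Both pups thus had a similar, moderate level. Against the amino acid transporters that also carry thyroid hormones, the log2 ratio of Slc16a10 to Slc7a5 was -0.81 ± 0.35 and that to Slc7a8 was 0.67 ± 0.59, neither beyond the spread. Of 8 other transporters listed, 4 reached 1 TPM, beside 58.2% of all protein-coding genes. They were led by Slc3a2, the heavy chain that partners SLC7A5, at 33.0 TPM in pup 1 and 21.3 TPM in pup 2. The organic anion transporters Slco1c1 and Slco1a4 stayed below 0.1 TPM in both pups, and Slc17a4 had 0 counts.

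Dio2, the deiodinase that makes triiodothyronine within the cell (ENSMUSG00000007682, chr12:90724552-90738438, minus strand), was near the low end. It had 0.43 TPM in pup 1 and 0.41 TPM in pup 2 (0.42 ± 0.0141 TPM), from 74 and 67 counts on its single model. The pups had almost the same level, which lay above that of 36.5% of protein-coding genes. Dio3, the deiodinase that inactivates the hormone, had 0.17 TPM in pup 1 and 0.11 TPM in pup 2, from 10 and 6 counts. The log2 ratio of Dio2 to Dio3 was 0.97 in pup 1 and 1.28 in pup 2 (1.13 ± 0.22), which rests on few Dio3 counts and on the 0.1 TPM added to each. Dio1, the deiodinase known from liver and kidney, had 0 counts in pup 1 and 1 in pup 2. A noncoding gene read from the other strand at the Dio2 start, Gm26512, overlaps it by 100 exonic nt and had 6 and 4 counts.

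Several genes that act on the deiodinase or on the hormone inside the cell had far higher levels than the deiodinase genes. Of 14 genes of hormone metabolism and binding, 10 reached 1 TPM, with a median of 13.0 TPM. Over all protein-coding genes 58.2% reached 1 TPM, and the median was 2.59 TPM. Wsb1, which guides the ubiquitination of DIO2, led them with 58.8 TPM in pup 1 and 57.6 TPM in pup 2. Sult1a1, a sulfotransferase, followed with 48.1 and 22.6 TPM, and Crym, which encodes a cytosolic protein that binds triiodothyronine, with 32.0 and 34.4 TPM. Sephs2, needed to make the selenium donor for deiodinases, had 34.1 TPM in pup 1 and 24.3 TPM in pup 2, and Usp20, which removes ubiquitin from DIO2, had 24.03 and 26.2 TPM. The plasma carrier gene Serpina7 stayed at or below 0.08 TPM.

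Ncor1, the corepressor that unliganded receptors recruit (ENSMUSG00000018501, chr11:62316426-62458541, minus strand), had the highest TPM of the 8 genes, but that position depends on partial transcript models. It had 71.5 TPM in pup 1 and 66.1 TPM in pup 2 (68.8 ± 3.85 TPM), from 4817 and 4430 counts. An annotated fragment of 15 exons and 1695 nt (ENSMUST00000155486) held 54.9% ± 0.523 of this TPM but 38.0% ± 1.01 of the counts. The full-length model of 9037 nt and 2454 codons (ENSMUST00000018645) held 6.60% ± 0.58 of the TPM and 25.5% ± 1.33 of the counts, and a short model of 291 codons (ENSMUST00000069456) held 13.8% ± 1.01 and 18.3% ± 0.688. Incomplete models, 15 of the gene's 26, together held 75.0% ± 1.26 of the TPM and 54.2% ± 0.781 of the counts. With all counts of each gene divided by the length of its longest coding model, Ncor1 had 18.0 TPM in pup 1 and 17.5 TPM in pup 2, below Rxrg at 38.8 ± 5.21, Thra at 32.9 ± 1.38 and Rxrb at 22.6 ± 0.238 TPM, and the log2 ratio of Ncor1 to Rxrg was -1.12, against 0.51 ± 0.11 in deposited TPM. That scale was chosen after the data were seen. Ncor1 overlaps Ttc19 by 1 exonic nt and Pigl by 82 exonic nt on the other strand.

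Partners of Ncor1 and the opposing coactivators were all present. All 6 genes listed for the corepressor complex reached 1 TPM, with a median of 17.2 TPM: the deacetylase gene Hdac3 had 49.1 TPM in pup 1 and 44.4 TPM in pup 2, Gps2 had 35.9 and 33.9 TPM, and Tbl1x had 17.4 and 14.9 TPM. All 9 coactivator genes found also reached 1 TPM, with a median of 7.51 TPM. Over all protein-coding genes 58.2% reached 1 TPM, with a median of 2.59 TPM. Med1, the Mediator subunit that liganded receptors contact, led with 22.2 TPM in pup 1 and 21.7 TPM in pup 2, and the p160 coactivators Ncoa1, Ncoa2 and Ncoa3 lay between 4.02 and 7.78 TPM.

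Set among 49 nuclear receptor genes, Rxrg ranked 2, Thra 4, Rxrb 6, Rxra 18 and Thrb 31 by mean TPM. The glucocorticoid receptor Nr3c1 was first at 53.2 TPM in pup 1 and 49.0 TPM in pup 2, and the liver X receptor Nr1h2 ranked 3 at 41.8 and 34.3 TPM. In all, 28 of the 49 receptors reached 1 TPM, near the share of 58.2% over all protein-coding genes, and 10 stayed below 0.1 TPM. On the scale of longest coding models Rxrg ranked 1, Thra 3, Rxrb 7, Rxra 17 and Thrb 31, so that the members moved by at most 1 place. Nr3c1 fell to rank 6 on that scale, at a mean of 23.4 TPM. Of 13 other genes whose proteins pair with retinoid X receptors, 10 reached 1 TPM, against 58.2% of all protein-coding genes. Among them were Ppara at 18.9 TPM in pup 1 and 31.9 TPM in pup 2 and the retinoic acid receptor Rara at 22.4 and 19.1 TPM. The Ppara counts were close, 867 in pup 1 and 832 in pup 2, with a log2 ratio of -0.17 on scaled counts. On longest coding models the mean of Ppara was 8.81 TPM. Nr1i2 had 0 counts.

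**Figure D4:**
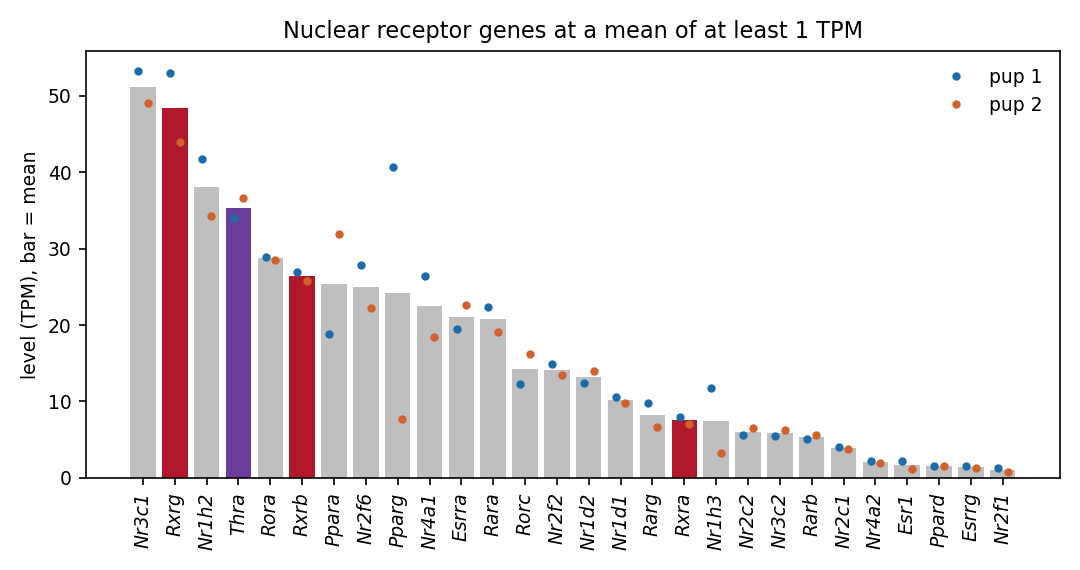
The 28 nuclear receptor genes with a mean of at least 1 TPM, in order; bars are means and points are the pups. Rxrg, Rxrb and Rxra (red) stand at 48.5, 26.4 and 7.51 TPM and Thra (purple) at 35.3 TPM; Thrb, at 0.485 TPM, is not drawn.

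Genes known to respond to thyroid hormone were mostly present, 15 of 16 at or above 1 TPM with a median of 38.9 TPM. Over all protein-coding genes the share was 58.2% and the median 2.59 TPM. The fast calcium pump gene Atp2a1 had 5196 TPM in pup 1 and 5946 TPM in pup 2, and the perinatal myosin Myh8 had 3908 and 5103 TPM. Embryonic myosin Myh3 had 490 TPM in pup 1 and 566 TPM in pup 2 (the hormone is known to lower both developmental forms), against 117 and 112 TPM for the slow myosin Myh7. The glucose transporter gene Slc2a4 had 109 TPM in pup 1 and 111 TPM in pup 2. Hr, the hairless corepressor gene and a direct target in brain, was the gene of this list below 1 TPM, at 0.77 TPM in pup 1 and 0.23 TPM in pup 2. Over the 6 lists, 54 of the 66 genes found reached 1 TPM, beside that share of 58.2%.

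Between the pups the 8 genes differed little, apart from Thrb. On TMM-scaled counts the log2 ratio of pup 1 to pup 2 was -0.23 for Thra, -0.08 for Dio2, -0.32 for Slc16a10, 0.04 for Rxra, -0.12 for Rxrb, 0.13 for Rxrg and -0.10 for Ncor1. For Thrb it was 0.92, and its count fold of 1.93 had a 95% interval of 1.36 to 2.78 (exact Clopper-Pearson, counting error only). Such intervals also excluded equality for Thra (0.804 to 0.904), Slc16a10 (0.731 to 0.878) and Rxrb (0.857 to 0.983). The same held for Rxrg (1.03 to 1.16) and Ncor1 (0.893 to 0.969), but not for Rxra and Dio2. The share of all genes with an interval that excludes equality was not computed. Over genes the libraries differed by far more than counting error (chi-square of 63.05 per degree of freedom). Excluding equality by counting error alone therefore does not set these genes apart. None of the 8 was 2-fold apart, beside 4.89% of 17020 genes with at least 10 mean counts that were 2-fold higher in pup 1 and 1.42% that were 2-fold higher in pup 2 (6.31% either way). Thrb alone passed 1.5-fold, and the share of all genes past that lower limit was not computed. Among the 1475 genes with mean counts within 1.5 times those of Thrb, 9.36% were at least 2-fold higher in pup 1. With TPM in place of scaled counts the ratios of Dio2, Rxrb and Ncor1 changed sign, to 0.055, 0.062 and 0.11; the median over all genes on that scale is 0.15, against 0.00170 on scaled counts.

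**Figure D5:**
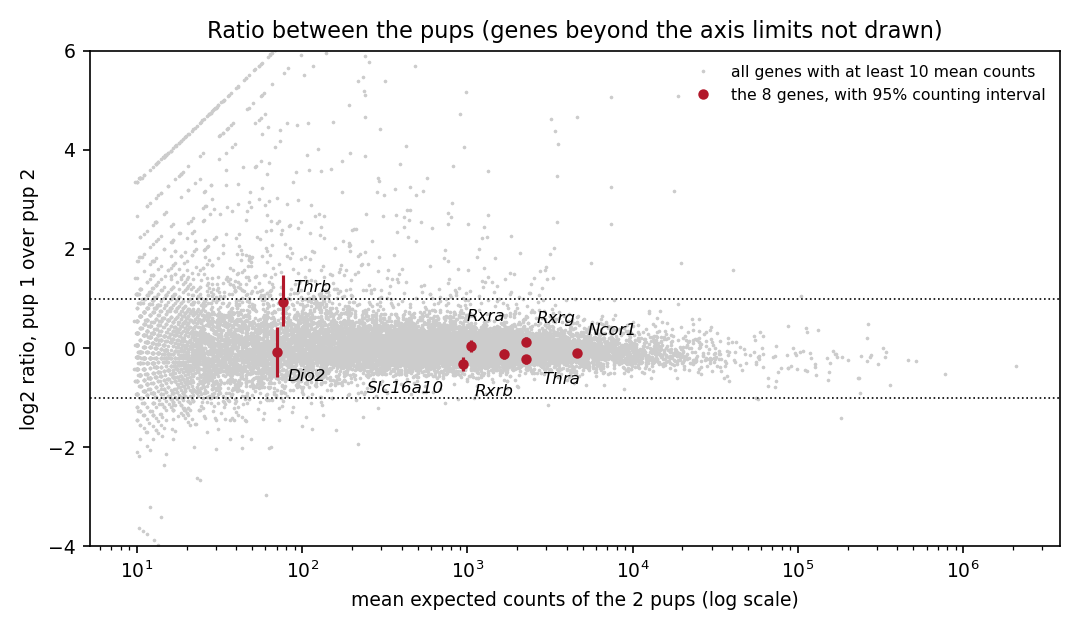
Log2 ratio of pup 1 to pup 2 on TMM-scaled counts against the mean count (log axis) for all genes with at least 10 mean counts (grey) and the 8 genes (red, with 95% counting intervals); dotted lines mark 2-fold. Thrb at 0.92 lies just inside the upper line, and the other 7 genes lie between -0.32 and 0.13.

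Markers of other tissues also differed between the pups. All 8 adipocyte markers were at least 2-fold higher in pup 1, with summed levels of 5025 TPM in pup 1 and 897 TPM in pup 2, as were 7 of 8 epidermis markers (447 and 9.43 TPM) and all 6 cartilage markers (41.7 and 1.24 TPM, Snorc at 0 in pup 2). Brown adipocyte markers summed to 37.6 TPM in pup 1 and 38.3 TPM in pup 2. Most of each sum came from Cidea, at 24.8 and 23.9 TPM, and from Ppargc1a, which is also on the coactivator list. Prdm16 was close, at 2.1 TPM in pup 1 and 2.24 TPM in pup 2. The scarce markers were higher in pup 1: Ucp1 had 6 counts in pup 1 and 0 in pup 2, Otop1 2 and 0, and Elovl3 27 and 6. The near-equal sums therefore do not show that the brown adipocyte signal was equal in the pups. Fibroblast markers summed to 5131 and 3695 TPM, endothelial markers to 215 and 199 TPM, leukocyte markers to 1098 and 608 TPM, Schwann cell markers to 83.3 and 72.6 TPM and heart markers to 5.53 and 6.46 TPM. The lists other than the adipocyte, epidermis and cartilage lists were also searched for 2-fold differences among markers with at least 10 mean counts. There 1 marker was at least 2-fold higher in pup 1, Elovl3 of brown adipocytes at 0.65 and 0.15 TPM. In pup 2 it was 1 as well, Nppa of heart at 0.19 TPM in pup 1 and 1.16 TPM in pup 2. Of the 58 pathway list genes with at least 10 mean counts, 4 were at least 2-fold higher in pup 1 and 1 in pup 2, near the shares over all genes (4.89% and 1.42%). The 4 were Pparg and Nr1h3, nuclear receptors of adipocytes and of lipid handling, Me1, the malic enzyme of fat synthesis, and Hr. Pparg had 40.7 TPM in pup 1 and 7.76 TPM in pup 2, Nr1h3 11.8 and 3.21 TPM, and Me1 21.8 and 9.00 TPM. The gene higher in pup 2 was the bile acid transporter gene Slc10a1, from 7 counts in pup 1 and 17 in pup 2. The part of these tissues in the Thrb difference was not tested.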

How the data were processed

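Total RNA-seq of skeletal muscle from 2 pups was analysed from the deposited gene and transcript tables. Per the files that accompany them, mm10 and GENCODE M4 were used; aligner, quantifier and strand setting: not given in the sources used here. The authors deposited expected counts (a model divides reads that fit several features), TPM, the share of each transcript as a percent of its gene's TPM, and bounds of a TPM interval, treated as a score here. Names and positions came from GENCODE M21 by ID without version (42462 of 43346 gene IDs matched); 26345 rows without a gene ID, spike-ins included, stayed out of the ratios and held 0.00109% and 0.0012% of the counts of pups 1 and 2. Depth was 40455042 and 37151129 counts.

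Computed here were means and SDs (n = 2), log2 ratios between genes with 0.1 TPM added (19 pairs), transcript shares, and pup 1 over pup 2 ratios of rounded expected counts, scaled by TMM in edgeR 4.0.16 (R 4.3.3; prior count 2; at least 10 mean counts), after a check on simulated counts. DESeq2 1.42.0 gave alternative size factors. No test was run, since 1 library per pup leaves no residual degrees of freedom. Levels on longest coding models divide a gene's counts by the effective length of its longest coding transcript in the files. That transcript need not be the main form: for Thrb it was Thrb-202, with 0 counts in both pups. For Rxrg it was Rxrg-201, with 14.9% of the gene's TPM. Counting intervals and floors cover counting error only, because reads can be PCR copies of 1 molecule and no molecular identifiers are named in the labels. Named were all 8 genes, every Thra model, other models with at least 10% of TPM or counts in either pup, overlapping genes with exonic overlap, up to 5 leading genes per list, list genes past 2-fold and list genes below 0.1 TPM; other genes, models and receptors were named after their values were seen. The genes and lists were chosen with earlier results of these data known. A likeness of pattern was not measured, since 2 samples give 1 ratio per gene. Promoter sequences are from RefSeq (GRCm38.p6). Software was Python 3.11.15 with scipy 1.17.1, pandas 2.3.3, numpy 2.4.6 and matplotlib 3.10.9. Prmt1, of the coactivator list, was not used here, and 2 of the pairs are not reported here.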

Additional observations from a re-analysis of the deposited data

How the results depend on the processing

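Of 233 alternative values over 50 results, 6 reversed. On longest coding models, a scale added after the data were seen, the log2 ratio of Ncor1 to Rxrg was -1.12 and that of Thrb to Dio2 -0.034, and leaving out either replicate moved Thrb to Dio2 between -0.35 and 0.54. With TPM ratios, pup 1 over pup 2 turned to 0.055 for Dio2, 0.062 for Rxrb and 0.11 for Ncor1. The log2 ratio of Thra to Thrb was 4.62 with 1 TPM added and 4.996 on counts without length correction; that of Rxrg to Rxra 2.53, 1.11 and, on longest coding models, 2.35; on counts Rxrg to Rxrb came to 0.45 and Ncor1 to Rxrg to 1.03. By counts Thra-201 held 70.3% and Rxrg-202 71.4%. Genes at least 2-fold higher in pup 1 and in pup 2 numbered 1563 and 1131 with no count filter, and 277 and 19 at 100 mean counts or more. At 1.5-fold, 1 of the 8 genes passed, without a share over all genes at that limit to set beside it. Leaving out either replicate gave 5.47 to 6.52 for Thra to Thrb, 0.77 to 0.98 for Rxrg to Rxrb, 2.63 to 2.71 for Rxrg to Rxra and 0.43 to 0.59 for Ncor1 to Rxrg. It gave 64.2% to 67.0% for Thra-201 and 74.5% to 75.7% for Rxrg-202. The 6 genes at 1 TPM and the 54 list genes were also 6 and 52 at a limit of 2 TPM. No paired analysis was possible because the series holds 1 group. Depth limits Thrb, Dio2 and Dio3, which rest on at most 106 counts per library.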
